A study of Mus musculus with 18 samples.

Results

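The 9 genes described here encode receptors of the TNF receptor superfamily other than 41BB: Tnfrsf4, Tnfrsf18, Cd27, Tnfrsf1b, Tnfrsf14, Tnfrsf1a, Tnfrsf25, Tnfrsf21 and Fas. They were taken by name and found by Ensembl identifier among the 55487 genes of the count table, and all 9 had enough counts to be tested, as did 13150 genes in all. RNA was sequenced from CD8+ T cells of the spleen and lymph nodes of wild-type C57BL/6J mice, with no age stated in the sources used here. The cells had been sorted on 41BB (CD137, encoded by Tnfrsf9) into 41BB+ cells, called Tpam by the study, and 41BB- cells, called conventional. RNA was taken straight after the sort (0 h, no activation), or once the cells had spent 24 h or 72 h with beads coated in anti-CD3 and anti-CD28 antibodies, which stimulate the T cell receptor and the CD28 costimulatory receptor. This gives 6 groups of 3 biological replicates, or 18 libraries. All cultured cells received beads, so time in culture and stimulation cannot be told apart, and the sources used here do not say whether a replicate was 1 mouse or a pool.

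Receptors of this superfamily bind trimeric ligands of the TNF family through cysteine-rich extracellular repeats. Most of those on T cells recruit TRAF adaptor proteins and, through them, activate NF-kB and MAP kinase signalling, which supports survival and expansion after antigen recognition. A subset carries a cytoplasmic death domain, which can assemble caspase-activating complexes or, for several members, also signal to NF-kB. Among the 9 genes, Tnfrsf4 (OX40), Tnfrsf18 (GITR), Cd27, Tnfrsf1b (TNFR2) and Tnfrsf14 (HVEM) encode receptors without a death domain. Tnfrsf1a (TNFR1), Tnfrsf25 (DR3), Tnfrsf21 (DR6) and Fas encode receptors with one.

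On GRCm38, 5 of the 9 genes lay on chromosome 4 within 10.815 Mb: Tnfrsf1b (chr4:145213463-145246870), Tnfrsf25 (chr4:152115934-152120119), Tnfrsf14 (chr4:154921933-154928563), Tnfrsf4 (chr4:156013843-156016612) and Tnfrsf18 (chr4:156026164-156028895). Tnfrsf4 and Tnfrsf18 were neighbours on the plus strand, 9551 bases apart. Cd27 (chr6:125232622-125237010) and Tnfrsf1a (chr6:125349362-125362484) lay 112351 bases apart on chromosome 6. Tnfrsf21 (chr17:43016555-43089189) and Fas (chr19:34290666-34327772) stood alone. Tnfrsf18 shared 414 exon bases with the antisense gene Gm16008, which held 78 counts over all 18 libraries. Cd27 overlapped the locus of Vamp1 with 0 shared exon bases.

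The sequence before the transcription start is shown for 3 of the genes: for Tnfrsf4 and Tnfrsf18, the neighbours whose levels moved together, and for Tnfrsf21, whose level differed most between the groups. The sequences are from RefSeq on GRCm38.p6, on the plus strand, 5′ to 3′. Each ends at the base before the RefSeq or the GENCODE start, whichever comes first. They cover chr4:156013445-156013694 for Tnfrsf4, chr4:156026072-156026163 for Tnfrsf18 and chr17:43016305-43016554 for Tnfrsf21. Capitals mark a match to a motif searched on both strands.
Tnfrsf4: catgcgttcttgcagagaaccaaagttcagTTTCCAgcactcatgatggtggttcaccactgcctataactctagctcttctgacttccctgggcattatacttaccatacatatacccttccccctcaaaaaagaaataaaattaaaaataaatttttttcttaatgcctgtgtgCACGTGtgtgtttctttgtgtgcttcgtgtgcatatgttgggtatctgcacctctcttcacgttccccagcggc
Tnfrsf18: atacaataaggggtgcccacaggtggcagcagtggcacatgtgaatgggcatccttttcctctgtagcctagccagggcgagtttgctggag
Tnfrsf21: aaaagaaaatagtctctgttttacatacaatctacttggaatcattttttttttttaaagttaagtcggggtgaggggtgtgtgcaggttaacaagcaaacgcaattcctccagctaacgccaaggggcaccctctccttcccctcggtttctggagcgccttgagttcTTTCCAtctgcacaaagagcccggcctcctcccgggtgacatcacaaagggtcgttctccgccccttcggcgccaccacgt
The 4 motifs searched were TGANTCA (AP-1), TGGAAA (the core bound by NFAT), CACGTG (E-box) and the kappaB motif, over the 250 bases before each RefSeq start. Of all 32851 such windows, 6.75% held the AP-1 motif, 18.6% the NFAT core, 6.02% the E-box and 7.25% the kappaB motif. The 9 genes had 10 RefSeq starts, and 4 of the 10 windows held any of the motifs. The share of all windows that held any of the 4 motifs was not counted, so 4 of 10 cannot be set against it. The Tnfrsf4 window held the NFAT core at -220 and the E-box at -74, and the Tnfrsf21 window held the NFAT core at -81. The Tnfrsf18 window held none of the 4 motifs. Fas had an AP-1 motif at -211 and an E-box at -110, and the second start of Tnfrsf25 had a kappaB motif at -28. These are matches of letters and not measured sites.

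The libraries held 3085241 to 4239795 counts (median 3524157.5). Tnfrsf9, the gene of the sort, was at 389 ± 28 CPM (counts scaled to a library total of 1000000, mean ± SD, n = 3) in 41BB+ cells at 0 h and at 6.74 ± 1.74 CPM in 41BB- cells. At 24 h its level was 138 ± 10 and 183 ± 11 CPM in the same order, and at 72 h it was 21.2 ± 11.4 and 52.4 ± 8.7 CPM. The CD8 T cell markers, 10 of 10 tested, summed to 3144 to 3465 CPM in 41BB+ and 4086 to 4535 CPM in 41BB- libraries at 0 h. There 1 was higher and 5 were lower in 41BB+ cells, beside 22.2% higher and 17.3% lower over all tested genes. The sums were 1916 to 2034 and 2455 to 2543 CPM at 24 h, and 3164 to 3633 and 2803 to 3448 CPM at 72 h. Cd4 had 0 to 4 counts in any library. The 10 markers of CD4 and regulatory T cells summed to 138 to 154 CPM in 41BB+ and 60.3 to 123 CPM in 41BB- libraries at 0 h. The sums were 226 to 256 and 132 to 216 CPM at 24 h, and 949 to 1055 and 600.1 to 644 CPM at 72 h. In 1 library, 41BB+ 24 h replicate 2, the myeloid markers summed to 83.8 CPM, against 1.62 to 12.8 CPM in the other 17. Without it, 4 of the 9 receptor genes still changed in 41BB+ cells from 0 to 24 h and 7 from 24 to 72 h, and 0 differed between the populations at 24 h. The B cell markers, led by Ighm, summed to 107 to 113 CPM in 41BB+ and 246 to 266 CPM in 41BB- libraries at 0 h, 131 to 222 CPM in both at 24 h, and 557 to 621 and 436 to 513 CPM at 72 h. Dendritic cell markers summed to 4.31 to 113 CPM, led at 0 h by Ccr9, with 74.4 to 105 CPM in 41BB+ and 106 to 113 CPM in 41BB- libraries there. The single dendritic markers ran both ways at 0 h, and of 4 tested 0 passed, where 39.5% of all tested genes differed. Means in 41BB+ against 41BB- cells were 63.95 against 99.9 CPM for Ccr9 and 16.43 against 5.015 CPM for Itgax. Stromal and endothelial markers, led by Pecam1 and with 0 to 7 counts of Col1a1, summed to 106 to 141 and 211 to 263 CPM at 0 h, 16.6 to 36.8 and 37.6 to 45.0 CPM at 24 h, and 208 to 282 and 106 to 122 CPM at 72 h. The part of these markers in the results was not tested. Markers of NK cells, of innate-like and gamma-delta T cells and of erythroid cells and platelets reached at most 11.4, 29.0 and 6.58 CPM. These are bulk RNA measurements, in which fewer cells expressing a gene and less RNA per cell cannot be told apart.

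At 0 h, 4 of 9 genes were higher in 41BB+ cells and 0 were lower, where 39.5% of all tested genes differed (22.2% higher, 17.3% lower). These were Tnfrsf21, Tnfrsf1b, Tnfrsf4 and Cd27. The share of the 9 genes that differed was thus near that of all tested genes. The count was 2, Tnfrsf21 and Tnfrsf1b, when any single 41BB- library of 0 h, or 41BB+ replicate 2 or 3, was left out. At 24 h, 0 of 9 passed by edgeR's quasi-likelihood test, 0 by DESeq2 and 0 at an unadjusted p under 0.05, where 2.75% of all tested genes differed (361 genes, against 577 with the experiment as a block within each time and 181 to 261 without 1 library). At 72 h, Cd27 was higher in 41BB+ cells and Tnfrsf1b and Tnfrsf21 were lower, 3 of 9, where 18.9% of all tested genes differed (6.71% higher, 12.2% lower). With only the 72 h groups in the fit, Cd27 alone passed, and Tnfrsf21 was too low there to be tested. The libraries of the 2 populations did not overlap for 5 of 9 genes at 0 h, 2 at 24 h and 3 at 72 h, beside 49.9%, 20.5% and 31.8% of all tested genes. The median log2 fold change of the 9 genes was 0.20 at 0 h, -0.01 at 24 h and 0.35 at 72 h, beside 0.01, 0.02 and -0.04 over all tested genes.

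**Figure D1:**
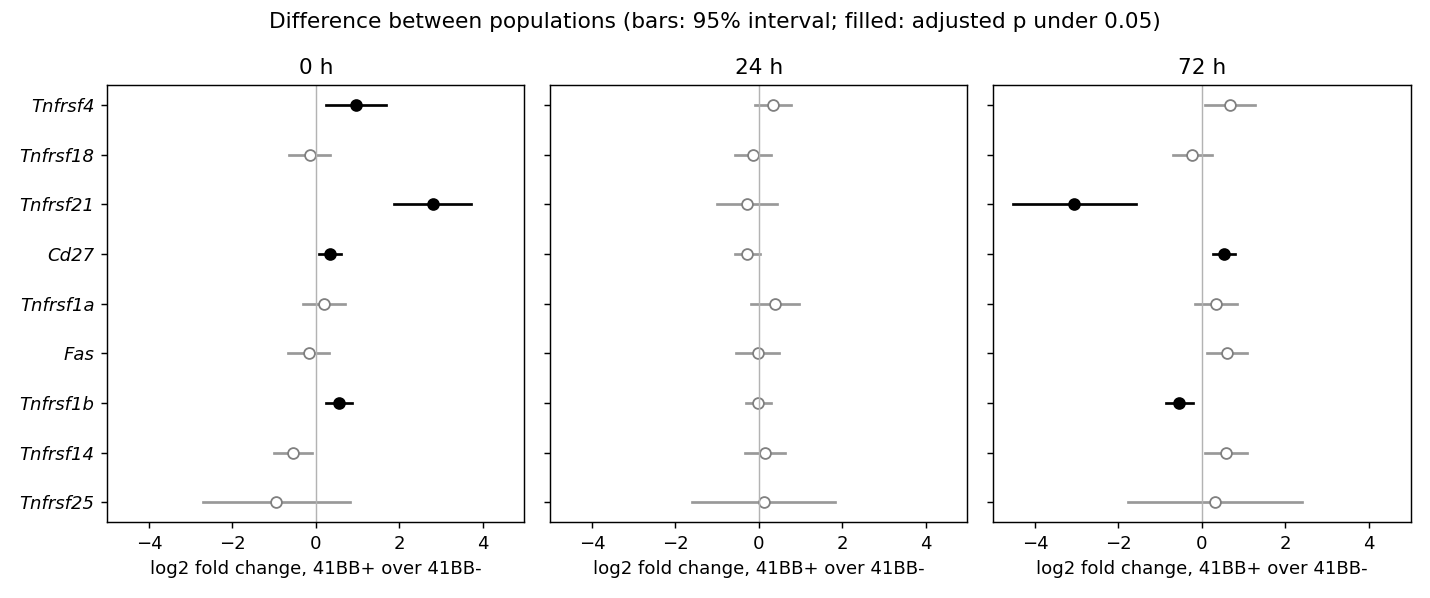
Log2 fold change of 41BB+ over 41BB- cells (x axis) for each of the 9 genes (y axis) at 0, 24 and 72 h. Circles are edgeR estimates from 3 libraries a group, bars are 95% intervals, and filled circles passed the test at an adjusted p under 0.05: 4 genes at 0 h, 0 at 24 h and 3 at 72 h.

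From 0 to 24 h, 4 of 9 passed the test in 41BB+ cells, where 34.6% of all tested genes changed (18.1% up, 16.5% down): Tnfrsf4 and Tnfrsf18 rose and Cd27 and Tnfrsf1a fell. In 41BB- cells 8 of 9 passed, where 56.6% of all tested genes changed (29% up, 27.6% down): Tnfrsf4, Tnfrsf21, Tnfrsf18 and Tnfrsf1b rose and Tnfrsf1a, Tnfrsf14, Cd27 and Fas fell. From 24 to 72 h, 7 of 9 changed in 41BB+ cells, where 52.5% of all tested genes did (26.2% up, 26.3% down), and 7 of 9 changed in 41BB- cells, where 40.8% did (22.6% up, 18.2% down). In each population 3 genes rose over that interval, Cd27, Tnfrsf1a and Fas, and 4 fell, Tnfrsf4, Tnfrsf18, Tnfrsf1b and Tnfrsf21. The 2 intervals of a population share its 24 h libraries, so a change and its return are not independent of each other. From 0 to 72 h, 3 of 9 changed in 41BB+ cells (46.7% of all tested genes, 23.4% up and 23.4% down) and 2 of 9 in 41BB- cells (47.9%, 26.8% up and 21.1% down). The 3 were Fas, which was higher at 72 h, and Tnfrsf1b and Tnfrsf21, which were lower, and the 2 were Tnfrsf4, higher, and Tnfrsf14, lower. In 41BB+ cells the count was 5 without 72 h replicate 1, with Tnfrsf4 and Tnfrsf18 added, or without 72 h replicate 3, with Tnfrsf4 and Tnfrsf25 added. In 41BB- cells it was 1, Tnfrsf14, when any single library of 0 h, or replicate 2 or 3 of 72 h, was left out.

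**Figure D2:**
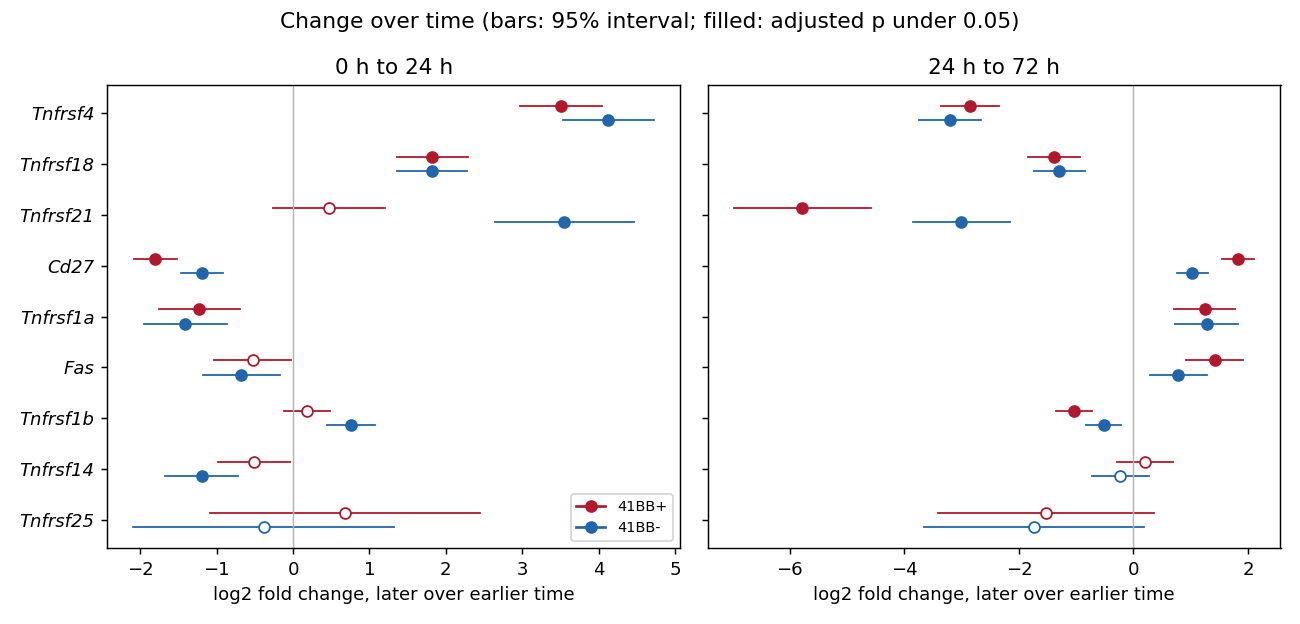
Log2 fold change from 0 to 24 h and from 24 to 72 h (x axis) for each of the 9 genes (y axis) in 41BB+ (red) and 41BB- (blue) cells. Circles are edgeR estimates from 3 libraries a group, bars are 95% intervals, and filled circles passed the test at an adjusted p under 0.05.

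The change over time itself differed between the populations for 3 of 9 genes from 0 to 24 h, where 23.0% of all tested genes had such a difference (Tnfrsf21, Cd27 and Tnfrsf1b). It differed for 2 of 9 from 24 to 72 h, where 17.5% did (Cd27 and Tnfrsf21). From 0 to 72 h it differed for 3 of 9, where 40.9% did (Tnfrsf21, Tnfrsf1b and Tnfrsf14). The difference in change did not pass the test for Tnfrsf4, Tnfrsf18, Tnfrsf1a, Tnfrsf25 or Fas over any of the 3 intervals. For Fas from 0 to 72 h it was nearest (adjusted p = 0.0643) and passed in 6 of 20 alternative analyses, DESeq2 among them (adjusted p = 0.0424). From 0 to 24 h only Tnfrsf21 passed without 41BB- 24 h replicate 2 or 41BB+ 0 h replicate 3. From 24 to 72 h only Cd27 passed by limma voom and without replicate 2 or 3 of 41BB- or replicate 1 or 2 of 41BB+ cells at 72 h.

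**Figure D3:**
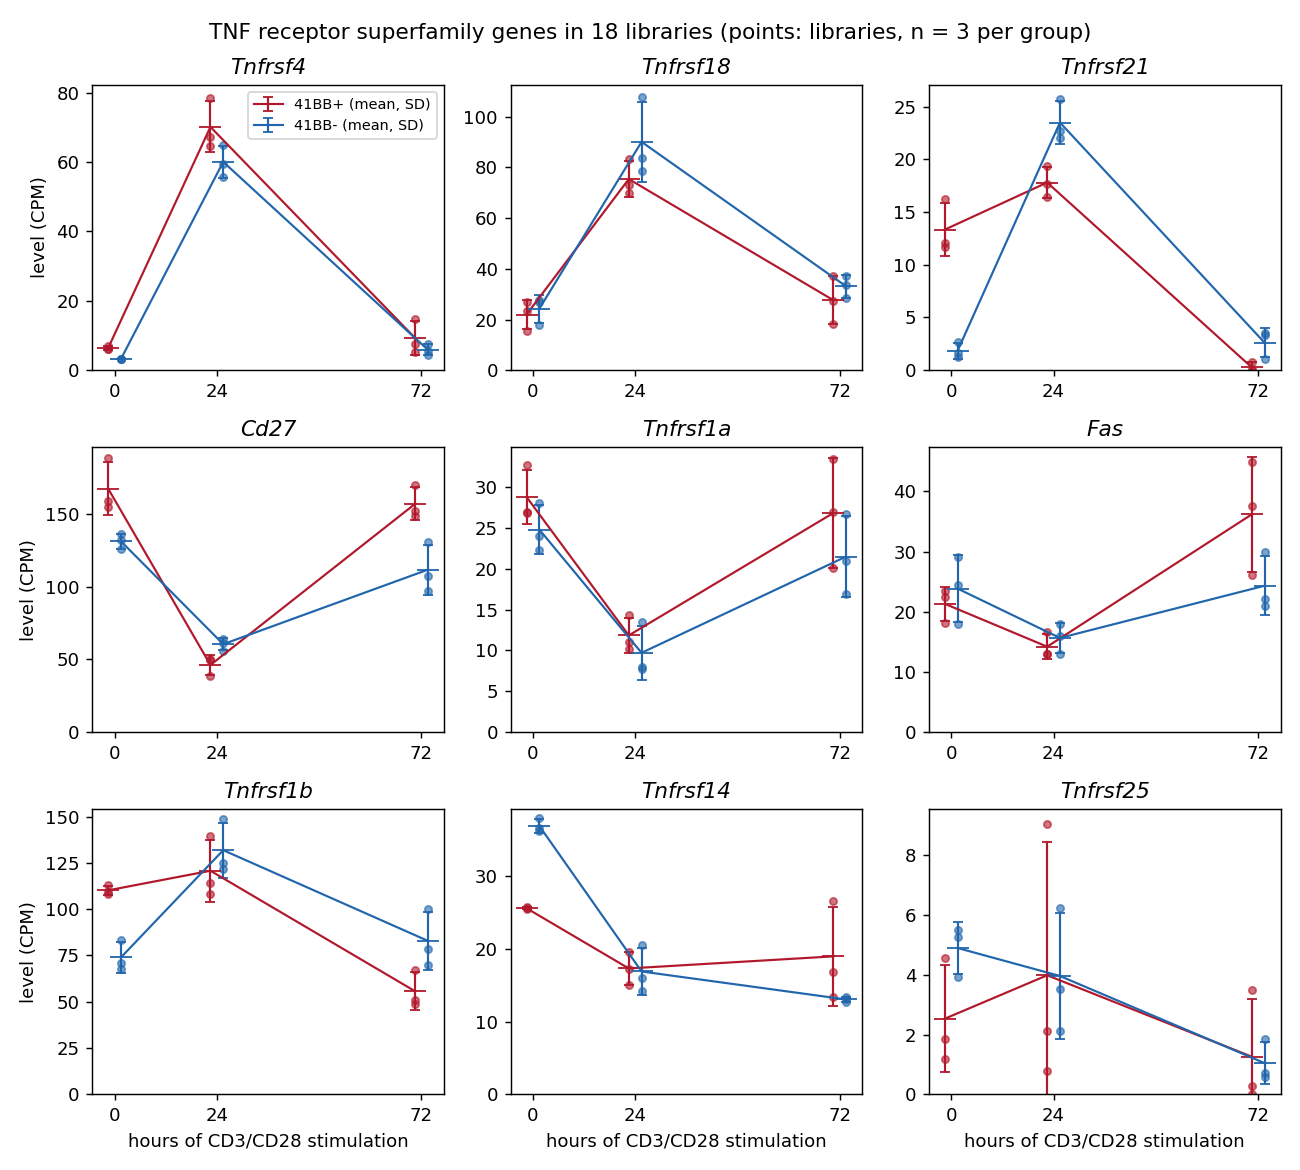
Level in CPM (y axis, from 0, scaled per gene) against hours of stimulation (x axis) for the 9 genes in 41BB+ (red) and 41BB- (blue) cells, drawn slightly apart. Points are the 18 libraries, and bars are the mean and SD of 3 libraries, with SD bars that reach below 0 cut at the axis; Tnfrsf4 peaked at 24 h at 70.1 and 60.1 CPM, and Cd27 was lowest there at 46.2 and 60.4 CPM.

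Tnfrsf4 encodes OX40, a costimulatory receptor induced on activated T cells. In 41BB+ libraries it was at 7.07, 6.01 and 6.05 CPM at 0 h, at 64.6, 67.3 and 78.5 CPM at 24 h, and at 7.68, 14.8 and 5.39 CPM at 72 h. In 41BB- libraries it was at 3.10, 3.24 and 3.32 CPM at 0 h, at 59.4, 55.8 and 65.0 CPM at 24 h, and at 4.48, 7.56 and 5.66 CPM at 72 h. The 6 libraries at 24 h all lay above the other 12, and the populations overlapped at 24 and 72 h but not at 0 h. From 0 to 24 h Tnfrsf4 rose 11.4-fold in 41BB+ cells (log2 fold change 3.51, SE 0.26, adjusted p = 1.35e-11 by edgeR's quasi-likelihood test with Benjamini-Hochberg adjustment) and 17.5-fold in 41BB- cells (4.13, SE 0.29, adjusted p = 1.43e-12). These were the largest rises among the 9 genes in each population. By 72 h it had fallen 7.24-fold and 9.19-fold again. The difference at 0 h was 1.95-fold (log2 fold change 0.96, SE 0.35, adjusted p = 0.0281), on 21 to 24 counts per 41BB+ library and 10 or 11 per 41BB- library. That call was lost when any single library of 0 h was left out (adjusted p between 0.0519 and 0.0855), by limma voom (0.12) and with only the 2 groups in the fit (0.114). At 72 h 41BB- cells had not returned to the level of 0 h (log2 fold change 0.93, SE 0.35, adjusted p = 0.0292), a call lost in 8 of 13 alternative analyses: without any single 41BB- library of 0 h, without replicate 2 or 3 of 72 h, without the filter on low counts, by limma voom and with only the 2 groups in the fit (adjusted p between 0.0511 and 0.157). In 41BB+ cells the same change did not pass (adjusted p = 0.0683), and it did without replicate 1 (0.0358) or 3 (0.00626) of 72 h. Without that replicate 3 the populations differed at 72 h as well (adjusted p = 0.0159). Regulatory T cells express OX40 and GITR at rest, and the summed markers of CD4 and regulatory T cells given above were higher in 41BB+ libraries at each time. The single markers did not all run that way. Of 9 tested, 3 were higher and 1 lower in 41BB+ cells at 0 h (median log2 fold change 0.90), 1 was higher at 24 h (0.30), and 2 were higher and 1 lower at 72 h (-0.19). Over all tested genes 39.5%, 2.75% and 18.9% differed at 0, 24 and 72 h. Ikzf2 led the difference in the sum, with means of 107 against 36.7 CPM at 0 h and 536 against 204 CPM at 72 h. Ctla4 was at 11.7 against 34.8 CPM at 0 h, and Zbtb7b at 22.6 against 41.3 CPM at 72 h. Foxp3 was at 2.91 ± 1.97 against 0.516 ± 0.895 CPM at 0 h, with overlap, and at 18.1 ± 7.9 against 5.13 ± 2.41 CPM at 72 h, without. Cd4 was at or near 0, and the part of these markers in the differences was not tested.

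Tnfrsf18 encodes GITR, a costimulatory receptor present at low levels on resting T cells and induced on activation. Its libraries held 15.6, 26.9 and 23.4 CPM in 41BB+ and 18.0, 27.9 and 26.8 CPM in 41BB- cells at 0 h. At 24 h they held 70.0, 72.9 and 83.3 CPM and 83.6, 78.7 and 108 CPM in the same order, and at 72 h 18.4, 37.2 and 27.2 CPM and 33.5, 28.5 and 37.3 CPM. As for its neighbour Tnfrsf4, the 6 libraries at 24 h lay above the other 12, and the populations overlapped at each time. By 24 h Tnfrsf18 rose 3.54-fold in 41BB+ cells (log2 fold change 1.82, SE 0.23, adjusted p = 2.49e-07) and 3.52-fold in 41BB- cells (1.82, SE 0.22, adjusted p = 8.28e-08). It then fell 2.61-fold and 2.45-fold by 72 h (adjusted p = 5.4e-06 and 1.84e-05). The rise differed between the populations by 0.0077 on the log2 scale, with a 95% interval from -0.63 to 0.64. From 0 to 72 h in 41BB- cells the change was 0.52 on the log2 scale (adjusted p = 0.063), and it passed with the experiment number as a block (adjusted p = 0.033). In 41BB+ cells it did not pass either (adjusted p = 0.13), and it did without 72 h replicate 1 (0.0136) or 0 h replicate 2 (0.0442).

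Cd27 encodes a costimulatory receptor of naive and memory T cells whose ligand is CD70. It was the most abundant of the 9 genes per length at 0 and 72 h. In 41BB+ libraries it was at 159, 154 and 188 CPM at 0 h, at 38.6, 49.8 and 50.1 CPM at 24 h, and at 169.6, 148 and 152 CPM at 72 h. In 41BB- libraries it was at 132, 126 and 136 CPM at 0 h, at 55.8, 64.1 and 61.4 CPM at 24 h, and at 130.4, 108 and 96.7 CPM at 72 h. The populations did not overlap at any time: 41BB+ cells were above at 0 and 72 h and below at 24 h, although the test did not pass at 24 h (log2 fold change -0.27, 95% interval -0.56 to 0.02, adjusted p = 0.45). Cells at 0 h and at 72 h were thus high in both populations, and both populations were low at 24 h. Cd27 fell 3.49-fold in 41BB+ cells by 24 h (log2 fold change -1.80, SE 0.14, adjusted p = 2.19e-11) and 2.28-fold in 41BB- cells (-1.19, SE 0.14, adjusted p = 1.64e-08). It rose 3.55-fold and 2.04-fold by 72 h (adjusted p = 6.1e-12 and 5.18e-07). The fall was larger in 41BB+ cells by 0.61 on the log2 scale (difference of changes -0.61, SE 0.19, adjusted p = 0.0198), which no longer passed with 41BB- replicate 2 of 0 or 24 h, 41BB+ 0 h replicate 3 or 41BB+ 24 h replicate 1 left out (adjusted p = 0.0519 to 0.083). The return was larger in 41BB+ cells too (difference 0.80, SE 0.19, adjusted p = 0.00361), and it passed in all 20 alternatives. At 72 h Cd27 was 1.44-fold higher in 41BB+ cells (log2 fold change 0.53, SE 0.13, adjusted p = 0.00448). The difference at 0 h was 1.27-fold (0.34, SE 0.13, adjusted p = 0.0383), and 8 of 14 alternatives did not pass. These were DESeq2 (adjusted p = 0.0697), RLE factors (0.0723), no filter on low counts (0.0974), and the fits that left out any single 41BB- library (0.0583 to 0.138) or without 41BB+ replicate 2 (0.0512) or 3 (0.263).

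Tnfrsf1b encodes TNFR2, which is stimulated best by membrane-bound TNF and costimulates T cells. In 41BB+ libraries it was at 109, 113 and 108 CPM at 0 h, at 139.7, 114 and 108 CPM at 24 h, and at 48.8, 50.9 and 67.3 CPM at 72 h. In 41BB- libraries it was at 71.0, 83.3 and 67.6 CPM at 0 h, at 149, 122 and 125 CPM at 24 h, and at 70.1, 78.5 and 100.2 CPM at 72 h. The order of the populations was thus the opposite at 0 and 72 h, without overlap at either time, and at 24 h they overlapped. At 0 h the level was 1.48-fold higher in 41BB+ cells (log2 fold change 0.56, SE 0.15, adjusted p = 0.00378). At 72 h it was 1.45-fold lower (-0.54, SE 0.16, adjusted p = 0.0138). The test at 72 h no longer passed with only the 2 groups compared in the fit (adjusted p = 0.0969) or with 41BB- replicate 3 (0.228), 41BB+ replicate 1 (0.13) or 41BB+ replicate 2 (0.123) left out. From 0 to 24 h Tnfrsf1b rose 1.69-fold in 41BB- cells (log2 fold change 0.76, SE 0.15, adjusted p = 0.000108), while in 41BB+ cells the change was 0.18 (95% interval -0.12 to 0.49). From 0 to 72 h it fell 1.82-fold in 41BB+ cells (-0.86, SE 0.15, adjusted p = 3.47e-05), with a change of 0.24 (-0.07 to 0.56) in 41BB- cells. The changes from 0 to 72 h differed by -1.10 (SE 0.22, adjusted p = 0.00014). Those from 0 to 24 h differed by -0.58 (SE 0.21, adjusted p = 0.0489), which did not pass in 14 of 20 alternatives, among them the experiment number as a block (adjusted p = 0.0588), DESeq2 (0.0818) and the fits without 10 of the 12 libraries (0.0552 to 0.167, all but 41BB- 0 h replicate 2 and 41BB+ 24 h replicate 1). Those from 24 to 72 h differed by -0.53 (adjusted p = 0.0918), which passed with a block within each time (adjusted p = 0.0264) and without 41BB+ 72 h replicate 3 (0.0415).

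Tnfrsf14 encodes HVEM, which binds the TNF family ligand LIGHT (Tnfsf14) and the immunoglobulin family receptors BTLA and CD160. In 41BB+ libraries it was at 25.6, 25.7 and 25.5 CPM at 0 h, at 17.3, 19.6 and 15.1 CPM at 24 h, and at 13.4, 16.9 and 26.7 CPM at 72 h. In 41BB- libraries it was at 36.3, 36.6 and 38.0 CPM at 0 h, at 16.0, 20.6 and 14.2 CPM at 24 h, and at 12.6, 13.1 and 13.4 CPM at 72 h. The 41BB- libraries of 0 h were thus the highest of all, without overlap with the 41BB+ libraries of 0 h. The difference at 0 h was -0.54 on the log2 scale (SE 0.22, adjusted p = 0.0571), and it passed in 5 of 14 alternatives, DESeq2 (adjusted p = 0.0326) and the block within each time (0.044) among them. In 41BB- cells Tnfrsf14 fell 2.29-fold by 24 h (log2 fold change -1.20, SE 0.23, adjusted p = 6.93e-05) and was 2.69-fold below its level of 0 h at 72 h (-1.43, SE 0.24, adjusted p = 1.24e-05). In 41BB+ cells the changes were -0.51 (adjusted p = 0.089) and -0.31 (adjusted p = 0.286), of which the first passed by limma voom (0.0439) and with only the 2 groups in the fit (0.0449). The populations did not differ by the test at 72 h (adjusted p = 0.0962), and they did without 41BB+ replicate 1 (0.0179). The change from 0 to 72 h differed between the populations by 1.12 (SE 0.33, adjusted p = 0.00708) and passed in all 20 alternatives.

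Of the 4 genes for death domain receptors, Tnfrsf1a encodes TNFR1, the widely expressed receptor for soluble TNF. Its libraries held 26.8, 26.9 and 32.6 CPM in 41BB+ and 22.3, 24.0 and 28.1 CPM in 41BB- cells at 0 h. At 24 h they held 10.2, 14.3 and 10.99 CPM and 7.98, 13.5 and 7.67 CPM, and at 72 h 20.0, 33.5 and 26.9 CPM and 16.9, 20.9 and 26.7 CPM. All 6 libraries at 24 h lay below the other 12, and the populations overlapped at each time. Tnfrsf1a fell 2.34-fold in 41BB+ cells (log2 fold change -1.23, SE 0.26, adjusted p = 0.000433) and 2.66-fold in 41BB- cells (-1.41, SE 0.27, adjusted p = 5.23e-05) by 24 h. It rose 2.36-fold and 2.42-fold by 72 h (adjusted p = 0.000192 and 0.000289). The log2 fold change from 0 to 72 h was 0.01 (95% interval -0.49 to 0.51) in 41BB+ and -0.13 (-0.64 to 0.38) in 41BB- cells.

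Tnfrsf21 encodes DR6, a death domain receptor known for restraining T cell proliferation and helper cytokine responses. In 41BB+ libraries it was at 16.2, 11.7 and 12.1 CPM at 0 h, at 16.4, 19.4 and 17.6 CPM at 24 h, and at 0, 0 and 0.808 CPM at 72 h. In 41BB- libraries it was at 1.24, 1.62 and 2.71 CPM at 0 h, at 22.0, 25.8 and 22.7 CPM at 24 h, and at 1.05, 3.49 and 3.30 CPM at 72 h. The 41BB+ libraries of 0 h thus lay just below those of both populations at 24 h, without overlap. The 41BB- libraries of 0 h overlapped those of 41BB- cells at 72 h. At 0 h Tnfrsf21 was 6.95-fold higher in 41BB+ cells (log2 fold change 2.80, SE 0.45, adjusted p = 1.06e-05), with 142 counts over 3 libraries against 18. By 24 h it rose 11.7-fold in 41BB- cells (3.55, SE 0.44, adjusted p = 8.24e-08). In 41BB+ cells the change was 0.47 (SE 0.36, adjusted p = 0.322), and the changes differed by -3.08 (SE 0.57, adjusted p = 0.00017). At 24 h the 41BB+ libraries lay below the 41BB- libraries without overlap, with a log2 fold change of -0.29 that did not pass (SE 0.35, adjusted p = 0.849).

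At 72 h the 3 libraries of 41BB+ cells held 3 counts of Tnfrsf21 in all, from replicate 3, and those of 41BB- cells held 30. The level in 41BB- cells was 9.41 times that in 41BB+ cells (exact 95% counting interval 2.93 to 48.2, adjusted p = 0.00287). The level in 41BB+ cells at 24 h was 64.2 times that at 72 h (21.6 to 314, adjusted p = 2.19e-09), and that at 0 h was 47.8 times (16.0 to 234, adjusted p = 2.38e-08). The intervals cover counting error only. In 41BB- cells Tnfrsf21 fell 8.03-fold from 24 to 72 h (log2 fold change -3.00, SE 0.41, adjusted p = 9.97e-07), and the change from 0 to 72 h was 0.55 (-0.51 to 1.61). The changes from 0 to 72 h differed between the populations (adjusted p = 1.41e-06), and those from 24 to 72 h did too (adjusted p = 0.0168), although the latter call was lost by limma voom (0.071) and without 41BB- replicate 2 or 3 or 41BB+ replicate 1 or 2 of 72 h (0.0538 to 0.0748).

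Fas encodes the receptor for Fas ligand, through which activated T cells can be eliminated. Its libraries held 22.4, 23.5 and 18.1 CPM in 41BB+ and 18.0, 29.2 and 24.4 CPM in 41BB- cells at 0 h. At 24 h they held 13.0, 13.0 and 16.6 CPM and 16.0, 18.0 and 13.1 CPM, and at 72 h 26.1, 37.5 and 45.0 CPM and 22.1, 20.9 and 30.0 CPM. The 6 libraries at 24 h lay below the other 12, the nearest at 18.0 CPM each, and the populations overlapped at each time. From 24 to 72 h Fas rose 2.67-fold in 41BB+ cells (log2 fold change 1.41, SE 0.24, adjusted p = 1.5e-05) and 1.72-fold in 41BB- cells (0.78, SE 0.24, adjusted p = 0.0109). At 72 h it was 1.85-fold above the level of 0 h in 41BB+ cells (0.88, SE 0.24, adjusted p = 0.00274), and the change in 41BB- cells was 0.11 (-0.38 to 0.59). The fall in 41BB- cells from 0 to 24 h was 1.60-fold (-0.68, SE 0.25, adjusted p = 0.021), which no longer passed with 41BB- replicate 2 or 3 of 0 h or replicate 1 or 3 of 24 h left out (adjusted p = 0.0611 to 0.151) and without the filter on low counts (0.0914). The rise to 72 h was lost without replicate 3 of 24 h (0.0937) or 72 h (0.124) and without that filter (0.0554). The population difference at 72 h, 0.60, did not pass (adjusted p = 0.0693). It passed without 41BB- replicate 3 (adjusted p = 0.0281) or without 41BB+ replicate 1 (0.0132).

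Tnfrsf25 encodes DR3, a T cell costimulatory receptor that carries a death domain. It was the least abundant per length in 4 of the 6 groups, with 0 to 32 counts per library. In 41BB+ cells the libraries held 1.18, 4.58 and 1.84 CPM at 0 h, 9.07, 2.12 and 0.767 CPM at 24 h, and 0.274, 0 and 3.50 CPM at 72 h. In 41BB- cells they held 5.27, 5.51 and 3.92 CPM, then 3.51, 2.13 and 6.25 CPM, then 1.84, 0.581 and 0.708 CPM. Libraries of the same group differed by more than the groups did in 41BB+ cells. None of its 12 comparisons passed by edgeR, where 1 had an unadjusted p under 0.05 (0.0312) and 1 passed by DESeq2. The change nearest to the threshold was that from 0 to 72 h in 41BB- cells, without overlap (log2 fold change -2.12, 95% interval -4.03 to -0.21, adjusted p = 0.0624). It passed in 4 of 13 alternatives: DESeq2 (adjusted p = 0.0375), limma voom (0.0426), no filter on low counts (0.0269) and only the 2 groups in the fit (0.00797). Without 41BB+ 72 h replicate 3, the library at 3.50 CPM, the changes in 41BB+ cells from 24 to 72 h (adjusted p = 0.00514) and from 0 to 72 h (0.0251) passed. Its SE between the populations at 0 h was 0.86 on the log2 scale, against 0.13 for Cd27 and 0.15 for Tnfrsf1b, so differences of the size seen for those genes lay within the error of this one.

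By mean level each gene ordered the 6 groups in its own way, but many neighbouring groups overlapped, and for Tnfrsf25 all of them did. For Tnfrsf4 and Tnfrsf18 the 24 h groups stood first and apart from the rest, and for Tnfrsf1a they stood last and apart. Cd27 ran from 41BB+ cells at 0 h and 72 h, which overlapped each other, to 41BB- cells at 0 h and 72 h, which did too, and ended with the 24 h groups. Tnfrsf1b began with both 24 h groups and 41BB+ cells at 0 h, each overlapping the next. It ran on through 41BB- cells at 72 and 0 h to 41BB+ cells at 72 h. Tnfrsf21 ran from 41BB- cells at 24 h through 41BB+ cells at 24 h and 0 h, with no overlap between neighbours, to the low groups. Compared per length (CPM per kilobase of GENCODE M21 exon), Cd27 stood first at 0 h with 71.8 ± 7.9 in 41BB+ and 56.3 ± 2.2 in 41BB- cells (SD, n = 3), and at 72 h with 67.3 ± 4.8 and 47.9 ± 7.4. At 24 h Tnfrsf4 (51.4 ± 5.4) and Tnfrsf18 (49.5 ± 4.6) led in 41BB+ cells, and Tnfrsf18 (59.1 ± 10.3) and Tnfrsf4 (44.0 ± 3.4) in 41BB- cells. The second place at 0 h was held by Tnfrsf1b in 41BB+ cells (28.9 ± 0.6) and by Tnfrsf14 in 41BB- cells (25.7 ± 0.6). Even at its highest, in 41BB- cells at 24 h, Tnfrsf21 was at 5.72 ± 0.49 per length.

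**Figure D4:**
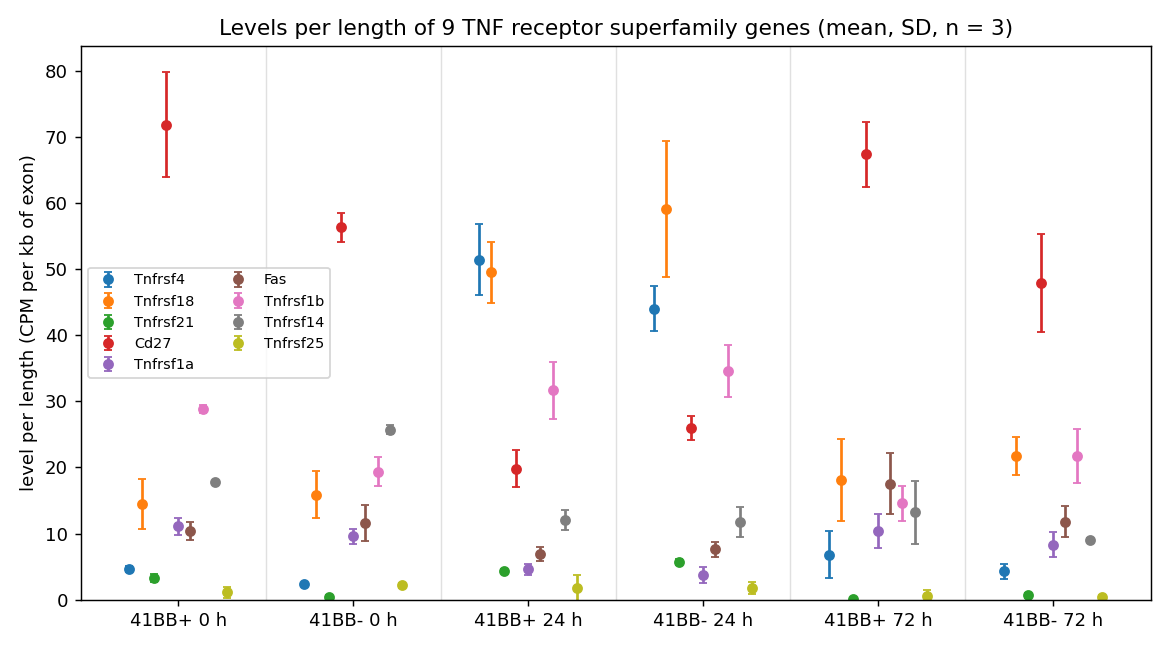
Level per length in CPM per kilobase of exon (y axis) of the 9 genes (colours) in each of the 6 groups (x axis), as mean and SD of 3 libraries. Cd27 is the highest point at 0 and 72 h, and Tnfrsf4 and Tnfrsf18 are the highest at 24 h.

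The ligands of these receptors were measured in the same libraries, and in a tissue several of them also come from other cells. Tnf, whose product binds TNFR1 and TNFR2, stood at 34.3 ± 4.8 CPM at 0 h in 41BB+ cells, against 9.50 ± 2.19 CPM in 41BB- cells, and was higher in the population with the higher Tnfrsf1b (log2 fold change 1.83, adjusted p = 7.43e-07). At 24 h it was at 68.1 ± 8.8 and 114 ± 22 CPM, a difference that did not pass (adjusted p = 0.0965), but did with a block within each time (0.0264), by limma voom (0.00487), without the filter on low counts (0.0302) and with only the 2 groups in the fit (0.0137). At 72 h it was at 7.76 ± 2.84 and 10.8 ± 3.4 CPM. Lta, for lymphotoxin alpha, which binds both TNF receptors and HVEM, rose from 13.5 ± 4.6 to 165 ± 23 CPM in 41BB+ cells by 24 h and from 4.34 ± 0.97 to 132 ± 6 CPM in 41BB- cells. It was higher in 41BB+ cells at 0 h (log2 fold change 1.62, adjusted p = 0.00018, without overlap) and rose less there (difference of changes -1.18, adjusted p = 0.0242). The latter call was lost by limma voom (0.0637) and without 41BB- 0 h replicate 1 or 2, 41BB+ 0 h replicate 2 or 41BB+ 24 h replicate 1 (0.0519 to 0.111). Tnfsf14, for LIGHT, was higher in 41BB+ cells at 0 h (21.2 ± 1.3 against 2.95 ± 1.83 CPM, adjusted p = 7.71e-06), where its receptor gene Tnfrsf14 was at 25.6 against 37.0 CPM. Cd160, for another HVEM partner, was higher there too (60.2 ± 8.2 against 14.4 ± 4.0 CPM, adjusted p = 6.62e-07). At 72 h both were lower in 41BB+ cells: Tnfsf14 at 1.11 ± 0.54 against 4.04 ± 3.32 CPM (adjusted p = 0.0229, with overlap) and Cd160 at 5.78 ± 1.87 against 11.1 ± 2.1 CPM (0.0454). The Cd160 call was lost, among other alternatives, with the experiment as a block (0.0502), by limma voom (0.195), with only the 2 groups in the fit (0.159) and without any single 72 h library other than 41BB+ replicate 2 (0.0668 to 0.236). Btla, for the third HVEM partner, did not pass the test between the populations at any time. Tnfsf4, for the OX40 ligand, was higher in 41BB+ cells at 0 h (3.79 ± 1.82 against 0.715 ± 0.641 CPM, adjusted p = 0.0142) and rose to 12.6 ± 1.8 CPM by 24 h (adjusted p = 0.0186). The first call was lost without replicate 2 of either population at 0 h (0.0729 and 0.0842), and the second without 41BB+ replicate 3 of 0 h (0.0742) or 24 h (0.064). In 41BB- cells Tnfsf4 rose too, to 3.92 ± 2.36 CPM by 24 h (adjusted p = 0.00918), a call lost without 24 h replicate 2 (0.081). The difference of changes did not pass (adjusted p = 0.746). At 24 h the populations did not overlap, with a log2 fold change of 1.77 that did not pass (adjusted p = 0.118). That difference did pass by DESeq2 (0.0431), by limma voom (0.0065) and with only the 2 groups in the fit (0.0103). Fasl was at 0.187 to 5.04 CPM in the 6 groups and was lower at 72 h than at 24 h in each population (adjusted p = 0.024 in 41BB+ and 0.0481 in 41BB- cells). These calls rest on 2 to 47 counts a group, and both were lost by limma voom (0.148 and 0.0566) and without single libraries: 41BB+ 24 h replicate 3 or 72 h replicate 1 for the first (0.153 and 0.0943), and 41BB- 24 h replicate 2 or 3 or 72 h replicate 1 or 2 for the second (0.0773 to 0.165). Cd70, for the CD27 ligand, had 18 counts in 41BB- cells at 24 h and 0 to 3 counts in each other group. Tnfsf15 and Tnfsf18, for the ligands of DR3 and GITR, had 0 to 3 counts in any library.

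Among the other receptors of the superfamily, 10 of 19 listed genes were tested. At 0 h, 2 were higher in 41BB+ cells (Tnfrsf9 and Tnfrsf22) and 1 was lower (Tnfrsf26, 29.4 ± 2.2 against 61.5 ± 12.8 CPM, adjusted p = 0.000128). Tnfrsf22 and Tnfrsf26 belong to a cluster of similar genes, so their counts are uncertain, and the Tnfrsf22 call (adjusted p = 0.0466) did not pass with a block within each time (0.0504), by DESeq2 (0.0598), with RLE factors (0.0656), without the filter on low counts (0.168) or without 41BB- replicate 1 or 2 or 41BB+ replicate 2 or 3 (0.105 to 0.207). At 24 h Tnfrsf26 alone passed, lower in 41BB+ cells, and at 72 h Tnfrsf26 was higher and Tnfrsf9 and Tnfrsf8 were lower. The Tnfrsf8 call (adjusted p = 0.0135) was lost without 41BB- replicate 1 or 3 or 41BB+ replicate 3 (0.0572 to 0.0798). Of 11 tested ligand genes, 5 were higher and 2 lower in 41BB+ cells at 0 h, 1 was lower at 24 h (Ltb) and 2 were higher and 3 lower at 72 h. These counts stand beside 39.5%, 2.75% and 18.9% of all tested genes that differed. The Ltb call at 24 h was lost without 41BB+ replicate 3 (adjusted p = 0.0758). At 72 h the calls for Lta, Tnfsf14 and Tnfsf8 were lost by limma voom (0.167, 0.295 and 0.0665). Each was also lost without single libraries of 72 h: Lta without any but 41BB+ replicate 2, Tnfsf14 without 41BB- replicate 3 or 41BB+ replicate 1 or 2, and Tnfsf8 without 41BB- replicate 1 or 41BB+ replicate 2 (0.0654 to 0.395). Of 34 genes of signalling close to the receptors, 3 were higher and 12 lower at 0 h, 1 and 1 at 24 h, and 6 and 1 at 72 h. Over all tested genes 22.2% were higher and 17.3% lower at 0 h, and 6.71% and 12.2% at 72 h. Both calls at 24 h were lost without single libraries: Cflar without replicate 2 or 3 of either population (adjusted p = 0.086 to 0.201) and Otulin without any of the 6 (0.0596 to 0.215). At 0 h those lower in 41BB+ cells included Traf5, for an adaptor of OX40, GITR and CD27 (42.3 ± 4.8 against 94.4 ± 7.5 CPM, adjusted p = 7.63e-05), and Ikbkb, for an IkB kinase (116 ± 11 against 212 ± 21 CPM, adjusted p = 1.18e-05). Siva1, for a protein that binds the tail of CD27, was higher (26.9 ± 6.7 against 6.99 ± 3.24 CPM, adjusted p = 1.23e-06). The median log2 fold change of the signalling genes was -0.24 at 0 h, 0.04 at 24 h and 0.09 at 72 h, beside 0.01, 0.02 and -0.04 over all tested genes.

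Of the 11 tested ligand genes, 6 rose and 2 fell in 41BB+ cells by 24 h (18.1% and 16.5% of all tested genes did), and 7 rose and 2 fell in 41BB- cells (29% and 27.6%). From 24 to 72 h, 1 rose and 7 fell in each population, beside 26.2% up and 26.3% down over all tested genes in 41BB+ cells and 22.6% and 18.2% in 41BB- cells. Ltb, for lymphotoxin beta, fell from 78.5 ± 12.2 to 30.3 ± 7.2 CPM in 41BB+ cells by 24 h (adjusted p = 1.13e-06) and from 180 ± 21 to 59.1 ± 8.9 CPM in 41BB- cells (1.86e-09). At 72 h it was at 190 ± 29 CPM in 41BB+ cells, above its level of 0 h (adjusted p = 7.05e-08), and at 124 ± 18 CPM in 41BB- cells, below it (0.0192). Ltb was thus lower in 41BB+ than in 41BB- cells at 0 h (adjusted p = 1.02e-06) and higher at 72 h (0.00466). Among the other receptors, Tnfrsf10b, the mouse death receptor for TRAIL, rose by 24 h in both populations (log2 fold change 1.15 in 41BB+ cells, adjusted p = 0.0042, and 1.38 in 41BB- cells, 0.000413). It fell from 24 to 72 h in both populations, to 4.86 ± 1.87 and 7.57 ± 2.69 CPM (adjusted p = 1.97e-07 and 9.16e-06). Of the 34 signalling genes, 6 rose and 5 fell in 41BB+ cells by 24 h, and 4 rose and 14 fell in 41BB- cells. Traf1, for an adaptor of several of these receptors, rose from 80.5 ± 17.1 to 199 ± 24 CPM in 41BB+ cells from 24 to 72 h (adjusted p = 2.89e-09). In 41BB- cells Traf1 rose too (log2 fold change 0.61, adjusted p = 0.0008), by less (difference of changes 0.76, adjusted p = 0.0069). Ripk3, for a kinase of necroptosis, rose over that interval in 41BB+ (0.89, adjusted p = 0.0024) and 41BB- cells (1.47, 5.57e-06), and the difference of changes did not pass (adjusted p = 0.25). At 72 h it was lower in 41BB+ cells (23.4 ± 3.0 against 44.4 ± 2.5 CPM, adjusted p = 0.00474).

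The genes whose levels ran most like each receptor over the 18 libraries were sought among 9231 genes by Pearson's r of log2 CPM. The libraries share 6 groups, so these values describe the patterns and are not tested. Lif, a cytokine gene, was nearest to Tnfrsf4 (r = 0.97), followed by Bcl2l1, for the survival protein BCL-XL (0.96), and Tnfaip1 (0.96). Ifi211, Cish and Wrnip1 were nearest to Tnfrsf18 (0.92 each), and reads of Ifi211 may be split with near copies in its family. Ugcg (0.96), Ms4a4b (0.95) and B4galnt1 (0.94) were nearest to Cd27. Sipa1 (0.94), Irak4 (0.93) and Sash3 (0.93) were nearest to Tnfrsf1a. Hnrnpa1 was nearest to Tnfrsf21 (0.97) and second for Tnfrsf1b (0.94), for which Prep was nearest (0.94). Cnr2 (0.93) was nearest to Tnfrsf14 and Tmem106b (0.92) to Fas. For Tnfrsf25 the highest value was 0.82, with Smad1.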

How the data were processed

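The authors deposited a table of read counts per gene, as whole numbers for 18 libraries, with no normalisation applied. Per the labels' protocols, RNA from an RNeasy Plus Micro column went into a stranded total RNA kit (SMARTer, v2). Per the submitters' processing notes, reads were handled with FastQC 0.11.9, Trimmomatic 0.38, HISAT2 2.2.1 and featureCounts on GRCm38. The annotation release, the strand setting of the counting and the treatment of reads that map to several places are not stated in the sources used here, so antisense and near-copy genes can share reads. Of the 55487 gene identifiers, 55227 matched GENCODE M21, which gave symbols, positions and exon lengths, and 0 rows of the table named no gene. A second deposited table, of library descriptions, was not used here.

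All 18 libraries were fitted together in edgeR 4.0.16 (R 4.3.3) with 1 mean per group, TMM factors and a robust quasi-likelihood F-test. Genes were kept by filterByExpr with a minimum count of 10 and a minimum total of 15, which left 13150. P-values were adjusted by Benjamini-Hochberg over these genes in each of 12 contrasts, including 3 differences between changes, at a threshold of 0.05. Standard errors were taken as the log2 fold change divided by the square root of F. Levels are CPM of the library total without TMM factors, so a ratio of levels can differ from the fitted fold. Where a group held 1 to 3 counts, an exact 95% counting interval is given instead of a fold. Promoter windows were taken from RefSeq, where all 9 genes matched. The scripts were tested on simulated data, with changes put into genes drawn from all tested genes. Of 2-fold changes, 46% were recovered between the populations at 0 h and 43% from 0 to 24 h in 41BB+ cells. For the difference in change from 0 to 24 h it was 31%. Of 4-fold changes, 82%, 84% and 72% were recovered in the same order. A test that did not pass is thus no sign that a gene was unchanged.

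The labels call the replicate number an experiment, so same-numbered libraries of the 2 populations at a time were taken as a pair. Only the alternatives with a block use this pairing. Over 12686 autosomal genes, the deviations of same-numbered libraries from their group means correlated above 0.1 in 5 of 9 pairs (median 0.107, lowest -0.0430). The fit described has no block, and blocked values stand beside the results they change. Between replicates of a group, counts varied 4.56 to 8.90 times as much as sampling alone gives, so no pair agreed within sampling noise. P-values compare a difference with the spread between replicates, estimated for each gene over all 6 groups together.

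The 9 genes and all gene lists (other receptors, ligands, signalling, cell type markers) were chosen with earlier results of these data known. Beyond the 9 genes, the text names the genes of the sort and of the T cell type, each ligand, and up to 3 genes per list with the smallest adjusted p in a population contrast or an interval of culture. It also names the 3 genes most alike each receptor (log2 CPM, prior count 2, mean of at least 5 CPM, no predicted genes, pseudogenes or antigen receptor segments). The single cell type markers named beyond these were chosen after their values were seen. The alternatives were no filter, RLE factors, DESeq2 1.42.0, the experiment as a block over all libraries or within each time, only the groups compared, limma voom 3.58.1 with quality weights, leaving out mitochondrial and ribosomal protein genes and Gm23935, and leaving out each library.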

Additional observations from a re-analysis of the deposited data

Results flagged for a closer look

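The changes over time differed between the populations, by a test of that difference in edgeR, for 4 of the 9 receptor genes, in 8 of 27 such tests, beside 23% of all tested genes from 0 to 24 h, 17.5% from 24 to 72 h and 40.9% from 0 to 72 h. On the log2 scale, the change in 41BB+ cells minus that in 41BB- cells was -0.58 from 0 to 24 h and -1.10 from 0 to 72 h for Tnfrsf1b, and the first of these did not pass in 14 of 20 alternatives. It was -0.61 from 0 to 24 h and 0.80 from 24 to 72 h for Cd27, and 1.12 from 0 to 72 h for Tnfrsf14. For Tnfrsf21 it was -3.08 from 0 to 24 h, -2.77 from 24 to 72 h and -5.85 from 0 to 72 h. The last pair of values rests on 3 counts in 41BB+ cells at 72 h, so as fitted sizes they depend on the prior count and are no bound.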

How the results depend on the processing

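Of 108 tests of the 9 genes, 46 passed, 37 of these passed under all alternatives run, 9 were lost under at least 1, and 13 further tests passed under at least 1. Over all tested genes 2.75% to 56.6% passed in the 12 contrasts. The contrasts share libraries, so the tests of a gene are not independent of each other. No called value changed direction, and the sign of differences that never passed was not counted. The count of all genes differing between the populations at 24 h was 361, and 550 by limma voom, 577 with the replicate block within each time and 181 to 261 without 1 library. The count of receptor genes at 72 h was 1, in place of 3, with only the groups compared, where Tnfrsf21 was not tested, and the count for the difference in change from 24 to 72 h was 1, in place of 2, by limma voom. Without 1 library each, the counts of receptor genes were 2 to 3 (main value 4) between the populations at 0 h, 3 to 5 (3) from 0 to 72 h in 41BB+ cells and 1 to 2 (2) in 41BB- cells. They were 1 to 2 (3) for the difference in change from 0 to 24 h and 1 to 3 (2) from 24 to 72 h. The cause of these moves was not tested. The experiment number as a block changed no call of a receptor gene other than those given for Tnfrsf14, Tnfrsf18 and Tnfrsf1b. Counts were low for Tnfrsf25, with 0 to 32 per library, and for Tnfrsf21 at 72 h, with 3 over the 41BB+ libraries.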
